A study of Mus musculus with 6 samples.

Results

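Cells with the lowest pigment gene expression within each tumor were described in a mouse melanoma single-cell RNA-seq data set. The data set held 602 cells, of which 507 passed a filter that asked for more than 1000 genes with a TPM (transcript abundance scaled to the same total in each cell) above 0 and less than 10% of TPM from mitochondrially encoded genes. Each retained cell was scored by the mean log2(TPM + 1) of 6 genes (Tyr, Tyrp1, Dct, Pmel, Mlana, and Mitf), and the bottom 25% of each tumor were taken as low-score cells, which gave 124 cells. They were compared with the 124 cells in the top 25% of the same tumors, called high-score cells. The members were thus selected on measured values of these 6 genes, and the levels of these genes in them are given as a description without a test.

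The cells came from the tumors of 6 C57BL/6 mice in 3 conditions, with 2 mice each. B16, a pigmented mouse melanoma cell line (B16-F10 in the labels), was grown without treatment (B16) or with an anti-PD1 antibody (B16PD1), given at 200 μg to each mouse on 3 occasions (day 5, day 8, and day 11). R499 was grown without treatment and is a line taken from a B16 tumor that relapsed after radiation and anti-CTLA4, so it stands for a single such relapse. In every condition 50000 tumor cells were injected subcutaneously, the tumors were taken on day 15 and sorted for cells negative for CD45, and Smart-seq libraries of whole transcripts were made on the ICELL8 system. The mice carried tumors on both flanks, and whether these were pooled, the age of the mice and a control antibody are not given in the sources used here. The number of low-score cells was 22 in tumor B16_007, 21 in B16_008, 21 in B16PD1_000, 22 in B16PD1_002, 20 in R499_015, and 18 in R499_016. Cell names and chip positions were not shared between tumors, and doublets were not called.

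Melanin is made in melanosomes, organelles related to lysosomes. TYR catalyzes the first step of its synthesis, and TYRP1 and DCT act on later intermediates. PMEL forms the fibrils on which melanin is laid down, and MLANA is a melanosome membrane protein that assists PMEL maturation. MITF is the transcription factor that drives these genes in melanocytes, and melanoma cells can lose this program and turn on mesenchymal and neural crest genes instead, a state called dedifferentiation.

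MITF is known to bind a motif with the core CATGTG, called the M-box, in promoters of pigment genes. The 5 promoter stretches below belong to 3 genes of the score and to Trpm1 and Slc24a5, the pigment genes outside the score with the smallest p-values in the comparison described later. They were read from RefSeq promoters on GRCm38.p6 (250 bases before to 50 bases after a start site), run 5′ to 3′ on the strand of the gene, and carry in capitals the 7 letters TCATGTG, searched on both strands (CACATGA is the same motif on the other strand).
Tyr, chr7:87493513-87493572, minus strand: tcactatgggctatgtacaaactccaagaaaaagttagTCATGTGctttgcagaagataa
Tyrp1, chr4:80834140-80834199, plus strand: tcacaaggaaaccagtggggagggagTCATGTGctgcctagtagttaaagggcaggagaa
Dct, chr14:118052364-118052423, minus strand: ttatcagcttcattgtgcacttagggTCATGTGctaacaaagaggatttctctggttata
Trpm1, chr7:64153667-64153726, plus strand: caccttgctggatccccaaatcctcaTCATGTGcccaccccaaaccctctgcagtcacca
Slc24a5, chr2:125068067-125068126, plus strand: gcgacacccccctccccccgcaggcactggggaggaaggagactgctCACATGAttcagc

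The motif began at base -22 in Tyr, -47 in Tyrp1, -151 in Dct, -142 in Trpm1, and -13 in Slc24a5, counted back from the start site, and Dct held another match at -232. Of all 32851 promoters of the table, 3.77% held the motif. Among the 36 pigment and melanosome genes outside the score, 31 had a promoter in the table. Of these genes 3 (9.68%) held the motif, against 2.53% of the 8718 tested genes with a promoter. Mitf had 3 promoters in the table without the motif, and Pmel and Mlana had no entry. Trpm1 had 2 promoters, of which 1 held the motif and is shown. Of the pigment genes described later, Oca2 and Rab27a had promoters without the motif, and Slc45a2, Rab38, and Gpr143 had no entry. A match describes the letters in this window and not a bound site.

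The label of a low-pigment, less differentiated cell was checked first. Every one of the 124 low-score cells had Tyrp1, Dct, and Pmel above 0, and 78 had all 6 genes above 0. The pigment score of the low-score cells had a median between 8.87 (B16PD1_000) and 9.62 (B16_008) on the log2 scale, against 10.5 to 10.9 in the high-score cells. The 6 genes still made up between 0.889% and 1.31% of all TPM in the median low-score cell of a tumor, against 1.83% to 2.16% in the median high-score cell. The cells therefore had less pigment gene RNA rather than none, and they are named by the score here. The same 6 genes selected the cells, so these values do not test their cell type.

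**Figure D1:**
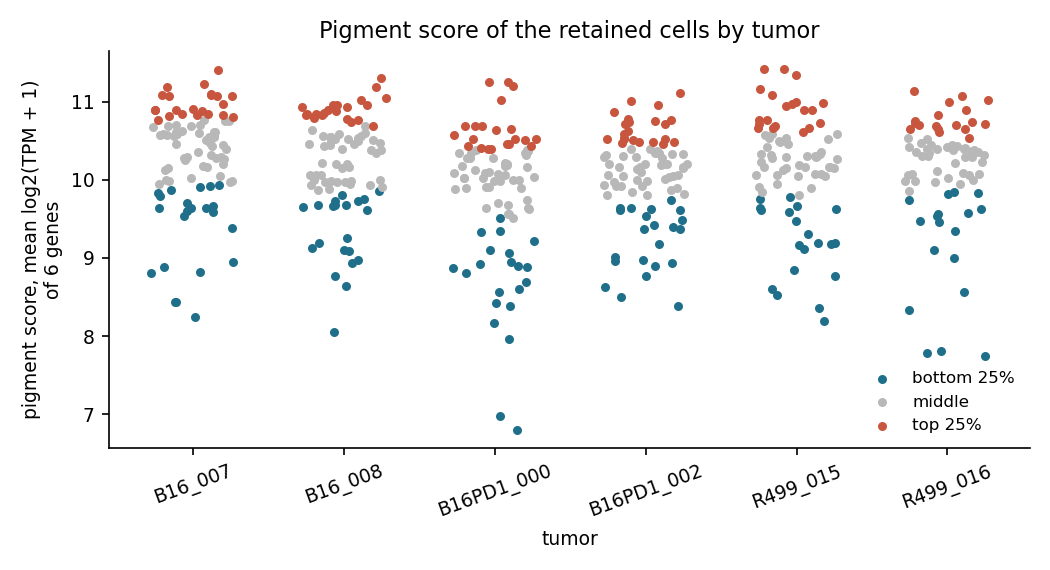
Pigment score (mean log2(TPM + 1) of 6 genes, vertical axis) of the 507 retained cells by tumor (horizontal axis), with 1 point per cell. The bottom 25% (blue) run down to 6.80 in B16PD1_000 without a gap below the middle cells (gray), and the top 25% (red) span a narrower range.

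The score was continuous across the limit. In B16_007 the last cell inside had a score of 9.93 and the first cell outside 9.94, and in B16_008 these were 9.86 and 9.87. The values were 9.51 and 9.51 in B16PD1_000, 9.73 and 9.80 in B16PD1_002, 9.77 and 9.81 in R499_015, and 9.85 and 9.86 in R499_016. No tumor had a separate low group at the limit. With 1 limit for all tumors, the lowest 25% of all retained cells (score below 9.81), the share of cells below it was 18.7% in B16_007, 23.3% in B16_008, 34.9% in B16PD1_000, 27.3% in B16PD1_002, 25.9% in R499_015, and 20% in R499_016. The 95% Wilson intervals, which cover counting error only, ran from 12% to 27.9% in B16_007 and from 25.7% to 45.4% in B16PD1_000, the tumors with the lowest and highest shares. The B16PD1 tumors had the highest shares, but with 2 tumors per condition the difference was not tested.

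Mitf and Tyr separated the members most. The median TPM of Mitf was 30.9 in low-score and 199 in high-score cells, and that of Tyr was 117 and 381. Mitf was at 0 in 36 of the 124 low-score cells (29.0%), Tyr in 10 (8.06%), and Mlana in 3 (2.42%), whereas none of the high-score cells had any of the 6 genes at 0. All retained cells with Mitf, Tyr, or Mlana at 0 were low-score cells, which the score itself brings about. Mitf made up 35.4% of the gap in score between low- and high-score cells, Tyr 23.8%, Mlana 12.6%, Tyrp1 11.4%, Pmel 9.15%, and Dct 7.69%. Thus the gap in score came mostly from the 2 genes of the score with the lowest TPM, where a TPM of 0 is most frequent.

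The mean log2(TPM + 1) of Mitf in low-score cells was 5.03 in B16_007, 4.44 in B16_008, 3.07 in B16PD1_000, 4.17 in B16PD1_002, 3.18 in R499_015, and 4.38 in R499_016. In high-score cells it was between 7.03 and 8.06. For Tyr the low-score means were 6.10, 6.76, 5.17, 7.21, 6.66, and 5.38 in the same order of tumors, against 8.27 to 8.88. B16PD1_000 had the lowest values of both genes, and the groups did not overlap. The enzymes and structural genes stayed high: the median TPM was 2658 in low-score and 5572 in high-score cells for Tyrp1, 3188 and 5156 for Dct, 2256 and 4145 for Pmel, and 2221 and 4146 for Mlana.

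**Figure D2:**
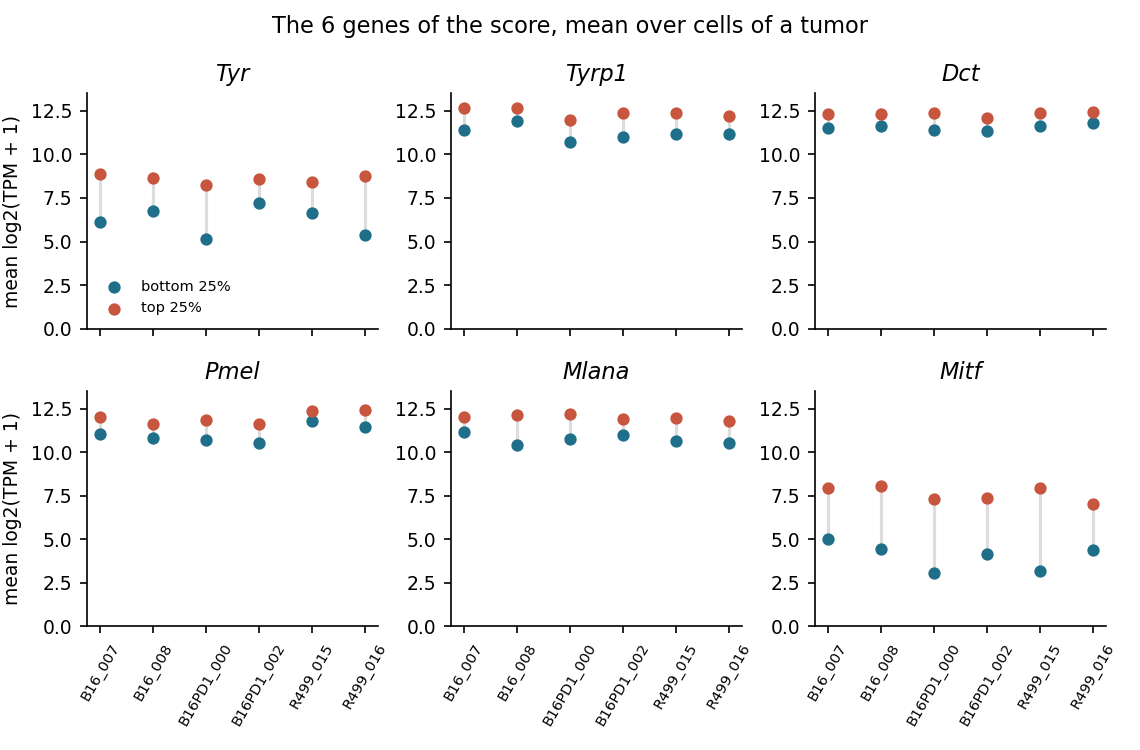
Mean log2(TPM + 1) (vertical axis) of each gene of the score in the bottom 25% (blue) and top 25% (red) of cells of each tumor (horizontal axis), which these genes selected. The distance is largest for Mitf and Tyr, and Tyrp1, Dct, Pmel, and Mlana stay above 10 in every tumor.

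The 6 genes did not vary as a unit among cells. Over the retained cells of a tumor, the correlation of log2(TPM + 1) was highest between Dct and Pmel, with a median Pearson r of 0.44 over the 6 tumors (0.36 to 0.59), followed by Tyrp1 and Pmel with 0.39 (0.31 to 0.59). Mitf correlated weakly with the other 5 genes, with median r between 0.04 and 0.14. These are descriptions over 75 to 91 cells per tumor, and the genes of a cell share its depth.

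Low-score cells also had fewer genes detected. The mean number of genes with TPM above 0 in low-score cells was 3615 in B16_007, 2963 in B16_008, 3215 in B16PD1_000, 3310 in B16PD1_002, 2497 in R499_015, and 2450 in R499_016. In high-score cells of the same tumors it was 3886, 3952, 3806, 3900, 4249, and 4227. It was lower in low-score cells in 6 of 6 tumors, with the smallest gap in B16_007 and the largest gaps in the R499 tumors. The difference was -995 ± 638 genes (SD, n = 6 tumors), with p = 0.03125 in an exact sign-flip permutation test, two-sided, which is the smallest p that 6 tumors allow, and an adjusted p of 0.0625 over 4 cell properties. Over the cells of a tumor, the score and the number of genes detected had a Pearson r of 0.07 in B16_007, 0.31 in B16_008, 0.28 in B16PD1_000, 0.23 in B16PD1_002, 0.57 in R499_015, and 0.52 in R499_016. Depth in reads is unknown from TPM, so a cell with less RNA and a cell sequenced less deeply cannot be told apart.

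Among the other cell properties, the share of TPM from cytosolic ribosomal protein genes was 16.3% ± 1.33 (SD, n = 6 tumors) in low-score and 15.2% ± 1.36 in high-score cells. It was higher in low-score cells in 6 of 6 tumors (exact sign-flip permutation test, p = 0.03125, adjusted p = 0.0625). The share from mitochondrially encoded genes was 2.93% ± 0.541 and 3.63% ± 0.516, and was lower in 5 of 6 tumors (exact sign-flip permutation test, p = 0.125, adjusted p = 0.125). None of these 4 comparisons passed 0.05 after adjustment.

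**Figure D3:**
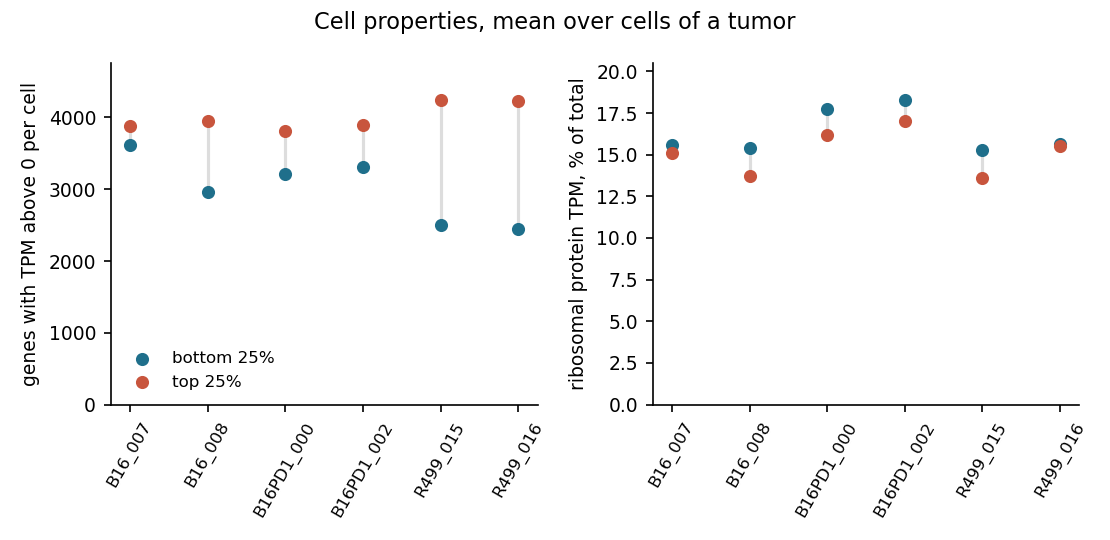
Mean number of genes detected per cell (left) and mean percent of TPM from ribosomal protein genes (right) in the bottom 25% (blue) and top 25% (red) of cells, with 1 pair of points per tumor. Genes detected are lower in low-score cells in every tumor, most in the R499 tumors, and the ribosomal share is higher by 1.15 percentage points on average.

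Most markers of other cell types were at 0 or rare in the low-score cells. Exceptions included Schwann cell markers, the immune marker Lcp1, the endothelial marker Egfl7, and 2 cells rich in immune markers. Lcp1 was above 0 in 18.5% of low-score and 27.4% of high-score cells, and Egfl7 in 12.1% and 24.2%. Of the 22 immune markers, 19 were above 0 in at least 1 low-score cell. Cd3g and Nkg7 of T and NK cells and Ms4a1 of B cells were at 0, and the mean summed immune TPM of a tumor ran from 15.7 to 1455 in low-score and from 20.1 to 120 in high-score cells. The high value came from a low-score cell of B16_007 that had 16 of the 22 immune markers above 0 with a summed TPM of 31568. A low-score cell of B16PD1_002 had 11 of them with a summed TPM of 24168, and no other retained cell had more than 4. Both cells were low-score cells, and both contained pigment gene RNA as well, with a Tyrp1 TPM of 986 and 2353. Results on genes of myeloid cells are given below with and without these 2 cells.

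Of the 10 fibroblast markers, 8 were at 0 in the low-score cells, Col1a1, Col1a2, Col3a1, and Pdgfra among them. Of the 10 endothelial markers 9 were at 0, including Pecam1 and Cdh5, and only Egfl7 was found. All 6 erythroid markers were at 0, as were 7 of the 9 keratinocyte markers, and of the 6 pericyte and muscle markers 4 were above 0 in at least 1 cell. Schwann cells share a neural crest origin with melanocytes, and their 5 markers were the most frequent list, with at least 2 of them above 0 in 18 low-score and 25 high-score cells. In all, 24 low-score and 33 high-score cells had at least 2 markers of the same type. These counts, and the shares of Lcp1 and Egfl7 above, do not allow for the fewer genes detected in low-score cells. With genes detected regressed out of the score, low-score cells had 0.27 more markers of other types on average.

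To see whether the genes of the score differ together, each was left out in turn and the cells were chosen by the other 5 genes. The gene left out was then compared between the bottom and top 25%, with the number of genes detected allowed for by regression within each tumor. The gene left out did not enter the choice, but it was measured in the same cells and shares their depth. Whether a shared program lies behind a difference was not tested. The difference of Tyr on the log2(TPM + 1) scale was -1.10 in B16_007, -0.63 in B16_008, -1.55 in B16PD1_000, -1.01 in B16PD1_002, -0.60 in R499_015, and -1.08 in R499_016, with a mean of -0.995 ± 0.349 (SD, n = 6 tumors). Tyrp1 was lower in the bottom 25% chosen in this way by 0.84 ± 0.20 (SD), Pmel by 0.77 ± 0.25, Dct by 0.57 ± 0.14, and Mitf by 0.56 ± 0.62. Each of these 5 genes was lower in 6 of 6 tumors (exact sign-flip permutation test, p = 0.03125, adjusted p = 0.0375 over 6 genes). With these settings each of the 5 genes was thus lower in cells chosen by the other genes. Calls were lost in some other settings given below, most often for Mitf. The genes were picked as known pigment genes, and the cells were chosen anew for each gene left out. The test therefore cannot decide whether the low-score cells themselves share a lower level of these genes.

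The differences were small for Mitf in some tumors, at -0.06 in B16PD1_002 and -0.20 in B16_007 against -1.70 in B16PD1_000. In cells with more than 2000 genes detected, the Mitf difference was -0.14 with an adjusted p of 0.719 by the same exact test, and without the 2 cells rich in immune markers it was -0.57 with an adjusted p of 0.075. Mlana did not pass. It was lower in 5 of 6 tumors, by 0.44 to 0.95, but higher by 0.97 in R499_015, with a mean of -0.40 ± 0.69 (SD, n = 6) and p = 0.219 in the exact sign-flip permutation test.

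All other genes were then compared between low- and high-score cells to see what else moves with the score. For each tumor, log2(TPM + 1) of a gene was regressed on membership of the bottom and top 25% and on the number of genes detected, and the 6 differences between low- and high-score cells were tested with limma over 11258 genes. No gene passed an adjusted p of 0.05 (0% of genes tested). At an unadjusted p below 0.05, 414 genes (3.68%) were lower and 355 (3.15%) higher, and 246 genes (2.19%) were lower and 301 (2.67%) higher in 6 of 6 tumors. Of those with a RefSeq promoter, the motif shown above was in 11 of 322 lower genes (3.42%) and 7 of 278 higher genes (2.52%), against 2.53% of all genes tested. When the number of genes detected was not allowed for, 329 genes (2.92%) passed the adjusted threshold, and all of these were lower in low-score cells, while the median over all genes moved from -0.01 to -0.29. With the test restricted to the 8133 genes found in at least 10% of cells, 9 genes (0.111%) passed. The 9 genes were Gsta1, Gsta2, Gsta4, Trpm1, Slc24a5, and B4galt4, which were lower, and Tmsb4x, Lgals3, and Rn7s2, which were higher. Genes given below by their p-value were chosen after their values were seen, and differences are on the log2(TPM + 1) scale with genes detected allowed for unless stated otherwise. A difference on that scale is not the log2 ratio of mean TPM between the groups. That ratio, taken without the allowance, was smaller in size than the difference for some genes, such as Gpr143 and Trpm1. It was larger for others, such as Lyst and Hps5.

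Trpm1 encodes a cation channel of melanocytes and is a known MITF target. Its mean level in low-score cells was 7.04 in B16_007, 6.49 in B16_008, 5.00 in B16PD1_000, 6.82 in B16PD1_002, 5.99 in R499_015, and 6.32 in R499_016. In high-score cells it was 8.38, 8.64, 8.12, 7.85, 8.59, and 8.28, so that the groups did not overlap. The difference with genes detected allowed for was -1.88 ± 0.33 (SE), lower in 6 of 6 tumors, with an adjusted p of 0.0867 in limma. It passed 0.05 in 5 of 25 alternative analyses, more than any other gene named here.

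The transporters of the melanosome followed. Slc24a5, a melanosomal ion exchanger that sets pigmentation, had levels of 8.11, 8.99, 7.09, 7.92, 9.02, and 8.53 in the low-score cells of B16_007, B16_008, B16PD1_000, B16PD1_002, R499_015, and R499_016. In high-score cells the levels were between 9.13 and 9.98, and the lowest of these was just above the highest low-score mean. The difference was -1.28 ± 0.24 (SE, adjusted p = 0.150, limma). Slc45a2, another melanosomal transporter, had levels of 7.31 to 8.50 in low-score and 8.79 to 9.33 in high-score cells, with a difference of -1.07 ± 0.24 (SE) that was between -1.39 and -0.82 in every tumor (adjusted p = 0.304, limma). Oca2, a melanosomal anion channel subunit, was at 0.94 to 1.81 against 2.51 to 4.02, with a difference of -1.49 ± 0.35 (SE, adjusted p = 0.305, limma). These 3 genes were lower in 6 of 6 tumors.

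Values of 3 further genes of the pigment list follow, chosen after they were seen, and none passed after adjustment. Rab38, a small GTPase needed for the delivery of TYR and TYRP1, had levels of 5.42 to 7.41 in low-score and 7.68 to 8.67 in high-score cells, with a difference of -1.14 ± 0.28 (SE, adjusted p = 0.305, limma). Rab27a, a small GTPase that ties melanosomes to myosin, had levels of 2.87 to 3.64 and 4.80 to 6.03, with a difference of -1.39 ± 0.37 (SE, adjusted p = 0.393, limma). Rab27a was nearly level in R499_016, at -0.03. Gpr143, a melanosomal receptor, differed by -1.51 ± 0.44 (SE, adjusted p = 0.508, limma) and was higher by 1.18 in R499_016.

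Of the 36 pigment and melanosome genes outside the score, all were tested and none passed an adjusted p of 0.05. At the unadjusted level 12 (33.3%) were lower and 0 higher, against 3.68% and 3.15% over all genes. The 12 were Trpm1, Slc24a5, Slc45a2, Oca2, Rab38, Rab27a, Gpr143, Hps3, Hps5, Ap3d1, Lyst, and Ptgds. The list's median difference was -0.42, against -0.01 over all genes, and its median was negative in each tumor, from -0.42 in B16PD1_000 to -0.27 in R499_016. The 2 most abundant genes of the list moved less. Cd63, a tetraspanin of melanosomes, was above 0 in all low-score cells and had a difference of -0.15 ± 0.16 (SE), and Ptgds, prostaglandin D synthase, of -0.45 ± 0.20 (SE, adjusted p = 0.679, limma).

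**Figure D4:**
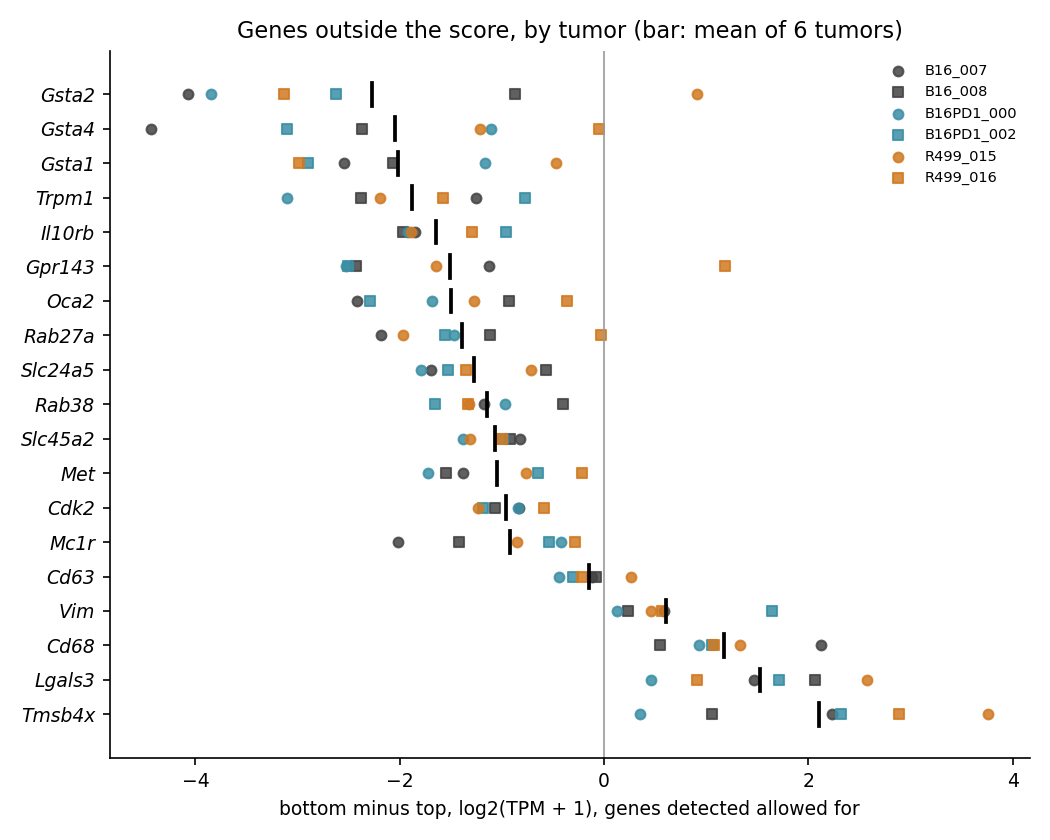
Difference between low- and high-score cells (horizontal axis, log2(TPM + 1), genes detected allowed for) of genes outside the score, with 1 point per tumor and a bar at the mean of 6 tumors. Trpm1, Slc24a5, Slc45a2, Oca2, and Rab38 lie below 0 in every tumor, and Vim, Cd68, Lgals3, and Tmsb4x above 0, while Gsta2, Gpr143, and Cd63 each have 1 R499 tumor above 0.

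Of the genes named here outside the pigment lists, the most negative differences were in glutathione S-transferases of the alpha class. These enzymes join glutathione to reactive compounds. Gsta1 (chromosome 9, 78230656 to 78242684, GRCm38) had levels of 5.97, 5.85, 5.51, 4.35, 7.11, and 5.53 in the low-score cells of B16_007, B16_008, B16PD1_000, B16PD1_002, R499_015, and R499_016. In high-score cells the levels were 8.59, 8.39, 7.31, 8.03, 8.76, and 9.10, and every tumor had the lower value in low-score cells. The difference was -2.02 ± 0.34 (SE, adjusted p = 0.0867, limma), with the smallest value in R499_015 at -0.47. Without R499_015, 2 genes passed an adjusted p of 0.05, Gsta1 and Gsta2.

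Gsta2 (chromosome 9, 78331018 to 78355788) had levels of 1.52 to 4.27 in low-score and 5.62 to 6.58 in high-score cells. Its difference was -2.27 ± 0.52 (SE, adjusted p = 0.304, limma), lower in 5 tumors and higher by 0.91 in R499_015. Gsta4 (chromosome 9, 78182774 to 78209349) had levels of 2.97 to 5.78 against 6.22 to 8.00, with a difference of -2.04 ± 0.45 (SE, adjusted p = 0.282, limma). These 3 genes lie in the same stretch of chromosome 9, and Gsta1 and Gsta2 are similar in sequence, so that reads of one may be counted for the other and their values are not independent. Gsta3, the other alpha class gene tested, lies on chromosome 1 and differed by 0.13 ± 0.10 (SE). Gstp1, of the pi class, differed by -0.20 ± 0.16 (SE). Of the 647 genes tested on chromosome 9, 42 (6.49%) were lower and 14 (2.16%) higher at an unadjusted p below 0.05, against 3.68% and 3.15% over all genes, and the chromosome's median difference was -0.03.

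Also lower were B4galt4, a galactosyltransferase, with levels of 0.59 to 2.24 against 2.55 to 3.82 and a difference of -1.70 ± 0.33 (SE, adjusted p = 0.150, limma), and Il10rb, the shared beta chain of the IL-10 and interferon lambda receptors, with levels of 2.20 to 3.82 against 4.73 to 6.30. Il10rb was above 0 in 46.8% of low-score and 83.9% of high-score cells, and its difference was -1.64 ± 0.34 (SE, adjusted p = 0.174, limma), between -1.97 and -0.96 in each tumor.

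The genes that were higher in low-score cells with genes detected allowed for were less separated between the groups. Tmsb4x, thymosin beta 4, which binds actin monomers, had levels of 4.46, 2.54, 1.56, 4.66, 6.44, and 4.81 in the low-score cells of B16_007, B16_008, B16PD1_000, B16PD1_002, R499_015, and R499_016. In high-score cells the levels were 2.37, 2.34, 1.86, 2.86, 4.59, and 4.41, so that the groups overlapped and B16PD1_000 had the lower value in low-score cells. The difference with genes detected allowed for was 2.10 ± 0.42 (SE, adjusted p = 0.150, limma), and it was about 1 without that allowance. Tmsb4x was above 0 in 49.2% of low-score and 44.4% of high-score cells.

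Lgals3, galectin 3, a carbohydrate-binding protein of melanoma cells and macrophages, had levels of 8.84, 7.55, 8.01, 7.91, 9.22, and 7.34 in low-score cells and 7.45, 6.37, 7.94, 6.61, 8.11, and 7.33 in high-score cells of the same tumors. The values were nearly equal in B16PD1_000 and R499_016. The difference was 1.53 ± 0.31 (SE, adjusted p = 0.150, limma), and it was present in about the same share of cells, 90.3% and 89.5%. Cd68, a lysosomal glycoprotein of macrophages that other cells also carry, had a difference of 1.18 ± 0.28 (SE, adjusted p = 0.304, limma), highest in B16_007 at 2.12. Without the allowance for genes detected the difference was 0.84 for Lgals3 and 0.62 for Cd68. Without the 2 cells rich in immune markers, the difference was 1.91 for Tmsb4x, 1.43 for Lgals3, and 1.02 for Cd68. The adjusted p in limma was then 0.290, 0.290, and 0.429 in the same order. The part of immune RNA in these differences was not tested. Rn7s2, a 7SL RNA gene with near-identical copies, differed by 1.10 ± 0.22 (SE, adjusted p = 0.150, limma). It was 0.32 without the allowance and -0.08 over all cells, and it is uncertain because reads can be shared between copies.

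Other genes of the melanocyte lineage, its transcription factors and receptors apart from Mitf, were listed next. Of 20 genes listed, 16 were tested, of which 3 were lower (18.8%) and 0 higher at the unadjusted level, against 3.68% and 3.15% over all genes. The list's median was -0.13, but 0.21 in B16_007 and -0.04 with the bottom and top 10% of cells. The 3 genes were Met, the receptor of hepatocyte growth factor, at -1.05 ± 0.34 (SE), Mc1r, the receptor of melanocyte-stimulating hormone, at -0.92 ± 0.36, and Zeb2, a transcription factor of melanocyte differentiation, at -0.93 ± 0.36. Each was lower in 6 of 6 tumors, with adjusted p between 0.512 and 0.634 in limma. Ctnnb1, the most abundant gene of this list, which encodes beta-catenin, had a difference of -0.42 ± 0.29 (SE). MITF targets outside pigmentation had 22 of 27 genes tested, 4 lower (18.2%) and 1 higher (4.55%), and a median of 0.00 against -0.01 over all genes. The higher gene was Lgals3, described above, at 1.53 ± 0.31 (SE, adjusted p = 0.150, limma). It had the smallest p of the list. Among the lower genes Cdk2, a cell cycle kinase with a known MITF link, was lower in 6 of 6 tumors by 0.58 to 1.24 (adjusted p = 0.393, limma).

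Genes of dedifferentiated and mesenchymal melanoma cells were examined because loss of MITF is known to go with them. Of 40 genes listed, 26 passed the filter on low values. At the unadjusted level 1 was lower and 4 were higher (3.85% and 15.4%, against 3.68% and 3.15% over all genes). The list's median was 0.05, against -0.01 over all genes. The 4 higher genes were Vim, an intermediate filament, at 0.60 ± 0.25 (SE), Fn1, fibronectin, at 0.87 ± 0.34, Wwtr1, a transcriptional coactivator of the Hippo pathway, at 0.80 ± 0.36, and Cav1, caveolin 1, at 0.70 ± 0.33. None passed after adjustment, and the lowest adjusted p was 0.640 in limma. Yap1, a coactivator of the same pathway as Wwtr1, was the gene that was lower, at -0.75 ± 0.31 (SE). Vim was higher in 6 of 6 tumors, but by 1.65 in B16PD1_002 and by 0.12 to 0.58 in the others. Cd44, the hyaluronan receptor, differed by -0.40 ± 0.29 (SE). Wwtr1 was lower in 2 tumors, by 0.31 in B16_007 and 0.23 in B16PD1_000, and Fn1 was at -0.99 in R499_016. Without the allowance for genes detected, the difference was 0.50 for Vim, 0.52 for Fn1, 0.07 for Wwtr1, and -0.01 for Cav1, and that of Cav1 was 0.05 without cells carrying 2 markers of another cell type.

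Lists of organelles and metabolism were compared in the same way. Over all genes, 3.68% were lower and 3.15% higher at the unadjusted level, with a median of -0.01. Of 25 genes of cholesterol synthesis and uptake, 3 were lower (12%) and 0 higher, with a median of -0.41. The 3 were Acat2 at -1.40 ± 0.41 (SE), Sc5d at -1.12 ± 0.37, and Nsdhl at -1.03 ± 0.47, all enzymes of sterol synthesis or its precursors. Fdps, an enzyme of the isoprenoid steps, differed by -0.43 ± 0.24. Of 27 genes of ER chaperones and the unfolded protein response, 2 were lower (7.41%) and 0 higher, with a median of -0.38. These were Hspa5, the ER chaperone BiP, lower in 6 of 6 tumors with a mean of -0.75 ± 0.26 (SE, adjusted p = 0.548, limma), and Ssr2, a subunit of the translocon-associated complex, at -0.67 ± 0.29. P4hb, the ER protein disulfide isomerase, one of the 2 most abundant genes of the list, differed by 0.09 ± 0.22 (SE).

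Lysosome and vacuolar ATPase genes had 47 members tested, 5 lower (10.6%) and 2 higher (4.26%), and a median of -0.16, against 3.68%, 3.15%, and -0.01 over all genes. The lower genes included Tpp1 and Glb1, lysosomal hydrolases, at -1.06 ± 0.37 and -0.99 ± 0.36 (SE), and the proton pump subunit Atp6v0c at -0.34 ± 0.16. Cd68 and Mcoln1, a lysosomal calcium channel, were the higher ones. Nuclear genes of oxidative phosphorylation had 77 tested, 5 lower (6.49%) and 0 higher, and a median of -0.17, which was -0.07 without B16PD1_000 and 0.35 in R499_015. Mitochondrially encoded genes had 15 tested, 3 lower (20%) and 0 higher, and a median of -0.20, with mt-Atp6 at -0.34 ± 0.15 (SE). That median was 0.37 in B16PD1_002 and 0.38 over all cells, those outside the filter included. Cytosolic ribosomal protein genes had 84 tested, 3 lower (3.57%) and 7 higher (8.33%), and a median of 0.10. Rps6 was at 0.73 ± 0.22 (SE) and higher in 6 of 6 tumors with genes detected allowed for, but at 0.01 without the allowance, with mean levels of 10.2 in low-score and 10.2 in high-score cells.

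Lists of the cell cycle, stress, and immune response had medians between -0.10 and 0.17, against -0.01 over all genes. S phase genes had 42 tested, 0 lower and 1 higher (2.38%), and a median of -0.10, and G2/M genes had 52 tested, 2 lower (3.85%) and 1 higher (1.92%), and a median of 0.11, against 3.68% lower and 3.15% higher over all genes. Pcna, the replication clamp, was above 0 in 72.6% of low-score and 87.1% of high-score cells, and with genes detected allowed for it differed by -0.23 ± 0.35 (SE). Mki67, a marker of cycling cells, was above 0 in 33.1% and 41.1%. The cells of both groups therefore included cycling cells, and shares of cells above 0 move with the number of genes detected.

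Interferon-stimulated genes had 42 tested, 0 lower and 2 higher (4.76%), against 3.68% lower and 3.15% higher over all genes, and a median of 0.10. The 2 genes were the transcription factor Irf1 at 1.06 ± 0.38 (SE) and the chemokine Cxcl10 at 0.77 ± 0.35, and they were at 0.63 and 0.46 without the allowance for genes detected. The 2 most abundant genes of the list, Ifi27 at -0.66 ± 0.32 (SE) and Lgals3bp at -0.28 ± 0.40, had differences of the opposite sign that did not pass the unadjusted level. MHC class I presentation genes had 19 tested, 2 lower and 2 higher (10.5% each), and a median of -0.01. B2m, the light chain of class I molecules, was the most abundant and differed by -0.59 ± 0.21 (SE, adjusted p = 0.567, limma), lower in 5 of 6 tumors. Immediate early genes had 22 tested, 0 lower and 3 higher (13.6%), and a median of 0.17, with Dusp1, a MAP kinase phosphatase, at 0.997 ± 0.401 (SE). The most abundant of them, Fos and Klf6, differed by 0.05 ± 0.35 and 0.34 ± 0.33 (SE). Glycolysis and hypoxia genes had 32 tested, 0 lower and 4 higher (12.5%), and a median of 0.14. The 4 were Ankrd37 at 1.11 ± 0.36 (SE), Vegfa at 0.73 ± 0.33, Slc2a1 at 0.77 ± 0.36, and Bnip3l at 0.61 ± 0.29, all known targets of hypoxia. Without the allowance for genes detected they were at 0.35, 0.03, 0.14, and -0.14 in the same order. Aldoa, a glycolytic enzyme, and Mif, a cytokine, the most abundant genes of the list, differed by 0.03 ± 0.12 and -0.05 ± 0.14 (SE). ATF4 amino acid response genes had 30 tested, 1 lower and 1 higher (3.33% each), and a median of 0.06, with Atf4 at -0.20 ± 0.28.

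**Figure D5:**
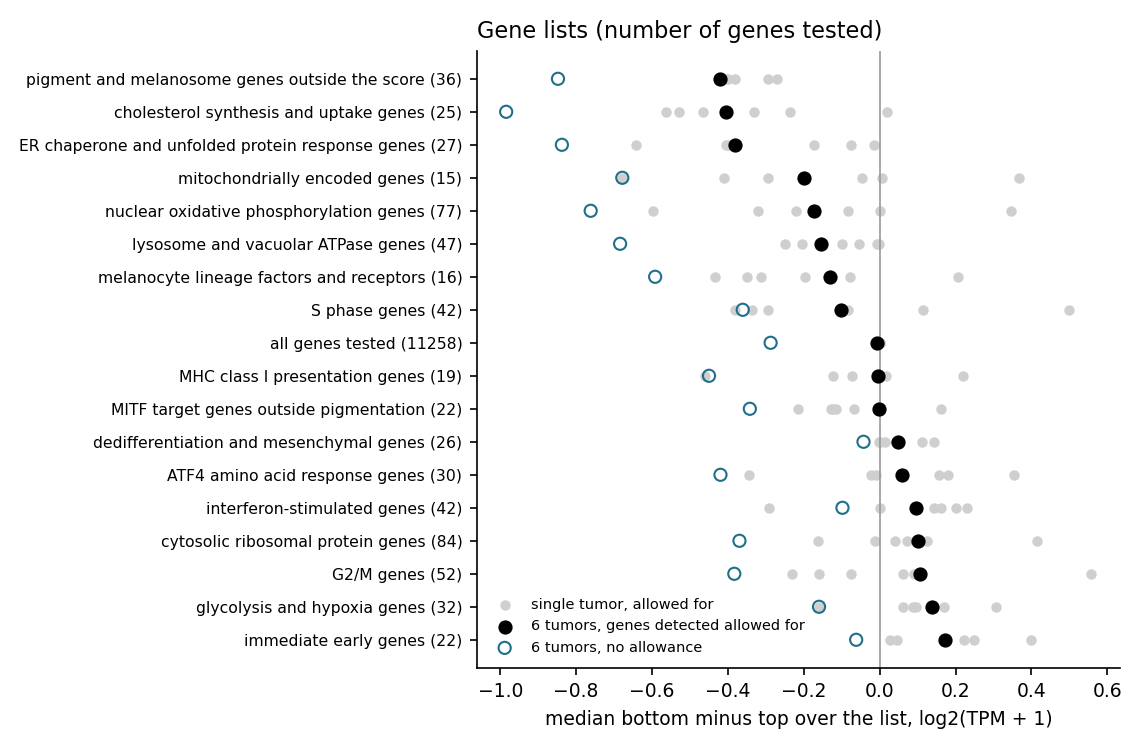
Median difference between low- and high-score cells (horizontal axis, log2(TPM + 1)) over the genes of each list (vertical axis, number of genes tested in parentheses), with genes detected allowed for over 6 tumors (black), in single tumors (gray), and without the allowance (open circles). Pigment and melanosome genes have the lowest median, -0.42, and a median below 0 in each tumor, and without the allowance the medians of every list and of all genes lie below 0.

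Without the allowance for genes detected, every list median was below 0, while that of all genes was -0.29. Relative to all genes, pigment and melanosome genes (-0.85), cholesterol genes (-0.98), and ER chaperone genes (-0.84) were still the lowest lists. Dedifferentiation and mesenchymal (-0.04), immediate early (-0.06), interferon-stimulated (-0.10), and glycolysis and hypoxia genes (-0.16) were still higher. The ribosomal protein (-0.37), G2/M (-0.38), and ATF4 genes (-0.42) moved from above to below the median of all genes. So did MITF targets outside pigmentation (-0.34) and MHC class I genes (-0.45), which had been nearly level with it.

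The conditions were compared within the low-score cells over the 2 tumors of each. The difference between low- and high-score cells did not pass an adjusted p of 0.05 in limma for any gene, for B16PD1 against B16 or for R499 against B16. At the unadjusted level, 367 genes (3.26%) and 612 genes (5.44%) differed. The smallest p for B16PD1 against B16 was that of Mcm3, a replication licensing factor. Its difference between low- and high-score cells was -3.28 in B16_007, -2.48 in B16_008, 1.89 in B16PD1_000, and 0.30 in B16PD1_002 (adjusted p = 1). For R499 against B16 it was that of Ptpn12, a tyrosine phosphatase, with 0.49 in B16_007, 0.78 in B16_008, -0.76 in R499_015, and -1.95 in R499_016 (adjusted p = 0.751).

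The level in the low-score cells themselves also gave no gene past an adjusted p of 0.05, with 563 genes (5%) for B16PD1 and 1205 genes (10.7%) for R499 against B16 at the unadjusted level. Car6, a secreted carbonic anhydrase, had levels of 8.97 in the low-score cells of B16_007, 9.48 in B16_008, 9.12 in each B16PD1 tumor, 6.29 in R499_015, and 6.68 in R499_016. The R499 tumors were lower by 2.74 ± 0.39 on the log2 scale (SE, adjusted p = 0.442, limma), with no overlap. Most other genes with small p-values were listed at 0 in 2 tumors or more, such as Itm2a, which was found at 0.92 in each R499 tumor and at 0 in the low-score cells of the other 4. The number of genes detected in low-score cells was lowest in R499, with a median of 2311 ± 138 (SD, n = 2 tumors) against 3145 ± 244 in the B16 tumors, and it moves with these levels.

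The gene for the checkpoint ligand PD-L1, Cd274, was above 0 in 17 of 124 low-score cells (13.7%) and in 27 of 124 high-score cells (21.8%), with 95% Wilson intervals of 8.74% to 20.9% and 15.4% to 29.8% for counting error. With genes detected allowed for, its difference was -0.14 ± 0.20 (SE). Kalrn was above 0 in 17 of 38 low-score cells and 17 of 38 high-score cells of the R499 tumors (44.7% each), and in 1 of 43 low-score cells each of B16 and B16PD1.

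The choice of members changed more with the genes of the score than with a correction for genes detected. Depth in reads is unknown, so its part in the choice was not tested. When the score was first corrected for genes detected, 110 of the 124 members (88.7%) were chosen again. With a score of 4 genes, without Mitf and Tyr, 82 (66.1%) were chosen again.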

How the data were processed

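Alignment was by STAR (2-pass, default settings) and quantification by RSEM. The authors deposited the resulting TPM of 25215 genes in 602 cells without a filter. The labels name mm10, and versions are not given in the sources used here. TPM summed to between 999999.44 and 1000000.59 per cell, so depth in reads is unknown. Retained cells had a median of 3547 genes detected. The study's limit on mapped reads could not be used on TPM. The 11258 genes tested had TPM above 0 in more than 5 retained cells, and the score genes were left out of this test.

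The tumor was the replicate. Column names give the condition of a tumor but not which labelled animal it is. Per tumor, log2(TPM + 1) was fitted by least squares on bottom 25%, top 25%, and genes detected, and the 6 differences were tested with limma 3.58.1 in R 4.3.3 (eBayes with trend, two-sided, Benjamini-Hochberg, threshold 0.05). Conditions were fitted to all 6 tumors with a shared variance. Cell properties and left-out score genes were tested by exact sign flips over 64 sign patterns. Tables and plots were made in Python 3.11.15 (pandas 2.3.3, numpy 2.4.6, scipy 1.17.1, matplotlib 3.10.9). Gene positions are from GENCODE M21 (25103 genes matched). The steps were checked on simulated data.

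The members and the 17 gene lists were chosen with earlier results of these data known. Lists had no test: their counts and medians stand beside those of all genes. Genes are named by a rule: the 6 score genes, the 10 largest differences in each direction past the threshold (none passed), the 2 most abundant members of each list in which none passed, Cd274 and Kalrn, and the smallest p-values of each condition contrast. Other genes were named after their values were seen. Alternatives were other treatments of genes detected, pseudocounts, gene and cell filters, shares of cells, scores, scalings, limma without trend, and leaving out each tumor or cells with markers of other types.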

Additional observations from a re-analysis of the deposited data

Results flagged for a closer look

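Among 58 sets of 6 tumor values searched, 2 had a tumor whose gap to the nearest of the others exceeded Dixon's 95% critical value, and chance flags about 1 in 20 such sets. Mlana, when left out of the score, was higher by 0.97 in the low-score cells of R499_015, whereas the other 5 tumors were between -0.95 and -0.44. Vim was higher by 1.65 in the low-score cells of B16PD1_002, whereas the other tumors were between 0.12 and 0.58. B16PD1_002 is a tumor with a low-score cell rich in immune markers. Without the 2 such cells the mean difference of Vim over the 6 tumors was 0.58 against 0.60 with them. That mean does not show the value of B16PD1_002 alone, so the part of its cell in this value was not tested.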

How the results depend on the processing

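Between conditions, no paired analysis was possible because the columns carry none of the labels' replicate numbers. Low- and high-score cells were compared within each tumor, so that comparison was paired by tumor. Leaving out cells with 10 or more immune markers was chosen after seeing the data, and the other alternatives were listed earlier. The count of genes past an adjusted p of 0.05 between low- and high-score cells, 0 as reported, was 329 without the allowance for genes detected, 9 for genes in at least 10% of cells, 2 in cells with more than 2000 genes, 1 with the bottom and top 50%, 3 with the score of 4 genes, and 0 to 2 when each tumor was left out, with the 2 calls without R499_015. In low-score cells, B16PD1 against B16 gave 28 genes without a gene filter and 50 with the bottom 10%. R499 against B16 gave 15 without a gene filter, 1 for genes in at least 10% of cells, 1 with the bottom 50%, and 2 after subtraction of each cell's mean. The condition difference of low- minus high-score cells for R499 gave 0 to 2 genes when each tumor was left out, with the 2 calls without R499_015. Of the score genes left out, Mitf lost its call at -0.56 with the square of genes detected added, -0.42 at a pseudocount of 10, -0.14 in cells with more than 2000 genes, -0.84 in cells under 5% mitochondrial TPM, -1.20 with the bottom and top 10%, -0.64 without cells with markers of other types, and -0.57 without the cells rich in immune markers. With the bottom and top 50%, Tyr (-0.63), Tyrp1 (-0.56), Dct (-0.38), Pmel (-0.36), and Mitf (-0.52) lost theirs. When each tumor was left out, which allows no p below 0.0625, values ran from -1.07 to -0.88 for Tyr, -0.89 to -0.78 for Tyrp1, -0.60 to -0.54 for Dct, -0.85 to -0.72 for Pmel, and -0.66 to -0.33 for Mitf. The mitochondrial share was higher by 2.49 percentage points in low-score cells over all cells, and with genes detected regressed out of the score, low-score cells had 105 more genes and 0.27 more markers of other types. Without the cells rich in immune markers, genes detected (-1017), the ribosomal share (1.21), and markers of other types (-0.66) passed an adjusted p of 0.05. Over 108 differences of single genes, 2697 alternative values were computed, of which 2563 moved by less than the spread between tumors, 89 moved by more, and 45 newly passed the threshold. Of 425 alternative medians of the 17 lists, 393 moved by less than the spread between tumors and 32 by more.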

Other observations

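Both retained cells with 10 or more of the 22 immune markers were low-score cells. The cell of B16_007 had the lowest score of its tumor, 8.25, with 5844 genes detected, a Ptprc TPM of 22.1, a Cd68 TPM of 1276, an Lgals3 TPM of 1727, and a Tmsb4x TPM of 12509. The cell of B16PD1_002 had a score of 9.43, 4233 genes detected, Ptprc at 0, a Cd68 TPM of 543, an Lgals3 TPM of 1498, and a Tmsb4x TPM of 4997. No other low-score cell had more than 2 immune markers.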
